A study of Homo sapiens with 12 samples.

Results

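The balance of mRNAs between ribosome-poor and polysomal RNA after sorafenib was measured in HepG2, a human liver cancer cell line. Sorafenib is a multikinase inhibitor given for hepatocellular carcinoma. Cells received 10 µM sorafenib (as the tosylate) or its DMSO vehicle for 12 h, and each lysate was run on a sucrose gradient after a short exposure to cycloheximide, which holds ribosomes on mRNA. Each culture gave a light pool, which held low-molecular complexes, free ribosomal subunits and single 80S ribosomes, and a polysome pool. All 12 of the 12 samples entered the comparison: 3 vehicle light, 3 vehicle polysome, 3 sorafenib light and 3 sorafenib polysome libraries from 6 cultures, 3 for each treatment. For each gene the shift was the polysome-to-light difference with sorafenib minus the same difference with vehicle, on a log2 scale. A positive shift is called a move toward polysomes and a negative shift a move toward the light pool. Both names stand for a change in this ratio, which either pool alone can give. Transfer of mRNA between the pools was not measured. The protocol describes experiments in triplicate with dishes pooled for each condition, and RNA from whole lysate was not analysed here. The p-values rest on the spread between the libraries of each group. The main fit held no term for the culture that a light and a polysome library share. All 4 groups carry the same unmodified HepG2 background, and the labels name no other agent than sorafenib, DMSO and cycloheximide.

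An mRNA that is being translated usually carries several ribosomes and sediments with polysomes, whereas an mRNA that is not initiated stays with the light material, and an mRNA with a short coding region holds few ribosomes even when it is well translated. Growth signals that pass through mTORC1 control mRNAs that start with a 5′ terminal oligopyrimidine (TOP) tract, among them those of ribosomal proteins and elongation factors. Stress kinases that phosphorylate eIF2 lower initiation in general but let through mRNAs such as ATF4, whose upstream reading frames otherwise hold ribosomes back.

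The libraries held between 511065 and 13336689 counts. The sorafenib light pool was the shallowest group, with 2060384, 511065 and 4989312 counts, and its library 2 stood apart: it listed 25638 genes with at least 1 count in spite of its depth, against 22300 to 25981 in the other libraries. Replicates of that group correlated at r = 0.82, 0.93 and 0.80 in log2 CPM across genes, where CPM is the count scaled to a common library size, those of the other groups at 0.95 to 0.99. The polysome-to-light differences correlated across genes at 0.71 to 0.73 between vehicle cultures and at 0.33 to 0.65 between sorafenib cultures. The marker sums that follow are scaled by library totals alone and so are not on the scale of the CPM values of single genes below. Summed hepatocyte markers reached 5726 to 15647 CPM with vehicle and 29225 to 39594 CPM with sorafenib. Summed fibroblast and stellate markers reached 14.5 to 19.6 and 30.5 to 50.9 CPM, immune markers 64.2 to 661 and 192 to 550.8 CPM. TYROBP was at 0 in every group but the sorafenib polysomes. Endothelial markers, of which KDR, TEK and CLEC4M were at 0 in the vehicle light pool, stayed between 0.585 and 2.03 CPM outside the sorafenib light pool, where they lay between 3.41 and 62.6 CPM, and their part in the results was not tested. Each library was scaled to itself, so that every value is relative to the other RNAs of the same pool, and in bulk RNA a change in all cells cannot be told apart from a larger change in some of them.

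Sorafenib moved 1921 of the 14955 tested genes toward polysomes (12.8% of those tested) and 1607 toward the light pool (10.7%), at an adjusted p under 0.05 in edgeR's quasi-likelihood test of the interaction. Adjusted p-values follow Benjamini and Hochberg over all tested genes, and SE is the standard error of the fitted shift. CPM values, apart from the marker sums above, are scaled by TMM factors. The median shift of all tested genes was 0.02, with quartiles at -0.77 and 0.81. Most calls were at least 2-fold, 1854 toward polysomes and 1496 toward light. All 3 sorafenib cultures lay above all 3 vehicle cultures for 3363 genes (22.5%) and below them for 2542 genes (17.0%), and of the called genes 1851 and 1432 did so. Calls toward polysomes made up 54.5% of all calls, but 33.6% when libraries were scaled by their totals only, where the median of all genes was -0.26, 64.6% when TMM factors were computed within each pool, where it was 0.17, and 75.5% with no filter on low counts. The split between directions thus depends on the scaling and the filter, and values are read here against the median gene. Without vehicle culture 2 or sorafenib culture 1, 1136 and 898 genes moved toward polysomes. Toward light, 871 were called without vehicle light library 1, 813 without vehicle light library 2, 843 without sorafenib light library 1 and 1033 without sorafenib polysome library 3. The same count was 884, 815 and 997 without vehicle culture 1, 2 or 3 and 701 without sorafenib culture 1.

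The shift combines a change on polysomes with a change in the light pool. In the polysome pool 3130 genes were higher (20.9%) and 4306 lower (28.8%) with sorafenib than with vehicle, and in the light pool 1752 were higher (11.7%) and 2648 lower (17.7%). Of the 1607 genes that moved toward light, 788 were lower on polysomes with no call in the light pool, 378 were higher in the light pool with no call on polysomes, and 340 were both lower on polysomes and higher in the light pool. Among the 1921 genes that moved toward polysomes, 1024 were higher on polysomes alone, 470 lower in the light pool alone, and 204 both. Polysome RNA exceeded light RNA for 2742 genes with vehicle (18.3%) and for 2002 with sorafenib (13.4%), and was below it for 2659 (17.8%) and 1855 (12.4%). Sorafenib turned 234 genes from polysome-enriched to light-enriched and 266 the other way.

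**Figure D1:**
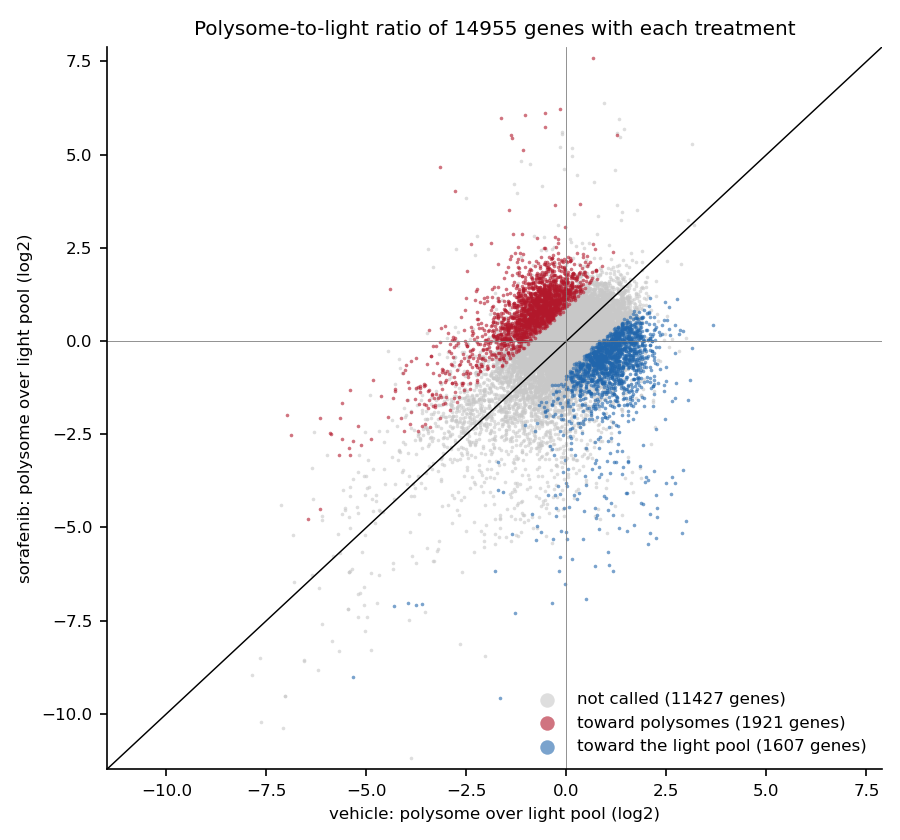
Each point is 1 of 14955 tested genes, with its fitted polysome-over-light ratio (log2) with vehicle on the x axis and with sorafenib on the y axis; the diagonal marks no shift. The 1921 genes that moved toward polysomes lie above the diagonal and the 1607 that moved toward the light pool below it.

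Translation factors whose mRNAs are known for TOP tracts moved toward polysomes in 18 of 27 cases, and ribosomal proteins, which share the tract, in 10 of 80, or 12.5% against 12.8% of all tested genes. The starts of EEF1A1, EEF2 and EIF4B and of the ribosomal protein genes RPSA and RPLP0 are shown because they carry the tract, beside RPL3, whose listed start opens a shorter run, and RPS26, whose listed start has none, from RefSeq's GRCh38.p14 promoter table. Each run covers 10 bases before and 15 from the annotated start, 5′ to 3′, and capitals mark an unbroken run of at least 5 bases of C and T that begins with C at the start itself.
EEF1A1, chr6:73521018-73521042, minus strand: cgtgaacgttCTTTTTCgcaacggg
EEF2, chr19:3985449-3985473, minus strand: cgtcagcgttCTCTTCCgccgtcgt
EIF4B, chr12:53006446-53006470, plus strand: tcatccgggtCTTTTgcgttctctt
RPSA, chr3:39406710-39406734, plus strand: tgccgcctgtCTTTTCCgtgctacc
RPLP0, chr12:120201097-120201121, minus strand: ggcgcgaggcCCTTCTCTCgccagg
RPL3, chr22:39319609-39319633, minus strand: gccgaccggcctctaccggcgggat
RPS26, chr12:56041908-56041932, plus strand: acataacctcgattttcttccgcca
Starts were found for 10386 tested genes, and in 759 of them (7.31%) at least 1 start was a C followed by at least 4 bases of C or T. The share was 72.3% of 65 ribosomal protein genes and 75% of 20 TOP translation factors with a listed start. It was 8.99% among genes that moved toward polysomes, 5.44% among those that moved toward light and 7.28% among the rest. Genes with such a start had a median shift of 0.20 and the others 0.04, and 17.4% against 13.9% moved toward polysomes and 8.56% against 11.7% toward light. The annotated start need not be the start used in these cells.

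Among translation factors and other mRNAs known as TOP mRNAs, all 27 listed were tested, 18 moved toward polysomes and 0 toward light, with a median shift of 1.47. EEF1A1, which delivers aminoacyl-tRNA to the ribosome and whose start is printed above, stood at 39806, 39159.7 and 49788 CPM in the 3 vehicle light libraries and at 6596, 4689 and 4875 CPM on vehicle polysomes. With sorafenib it fell to 21232, 14066 and 24163 CPM in the light pool and rose to 13039.5, 12287 and 8629 CPM on polysomes, with no overlap between treatments in either pool. Its shift was 2.19 ± 0.48 (SE; adjusted p = 0.00298). EEF2, the translocase of elongation, gave polysome-to-light differences of -2.47, -2.79 and -2.89 in the vehicle cultures and 0.55, 0.35 and -0.84 in the sorafenib cultures, a shift of 2.66 ± 0.42 (SE; adjusted p = 0.000238). EIF4B, a cofactor of the helicase that prepares mRNA for scanning, went from -2.0, -2.46 and -2.26 to 1.50, 1.41 and -0.07, and every sorafenib culture was above every vehicle culture. EEF1G, a subunit of the exchange factor of EEF1A1, shifted by 2.99 and EIF3A, a subunit of eIF3, by 3.07. The poly(A)-binding protein PABPC1 shifted by 2.37, TPT1 by 1.65 and the ribosomal scaffold RACK1 by 1.41. VIM had the lowest value of the list, -1.11, with an adjusted p of 0.696. Over the list the median culture difference was -1.73, -1.80 and -2.26 with vehicle and -0.72, 0.05 and -1.09 with sorafenib, and stayed below 0 in sorafenib cultures 1 and 3.

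**Figure D2:**
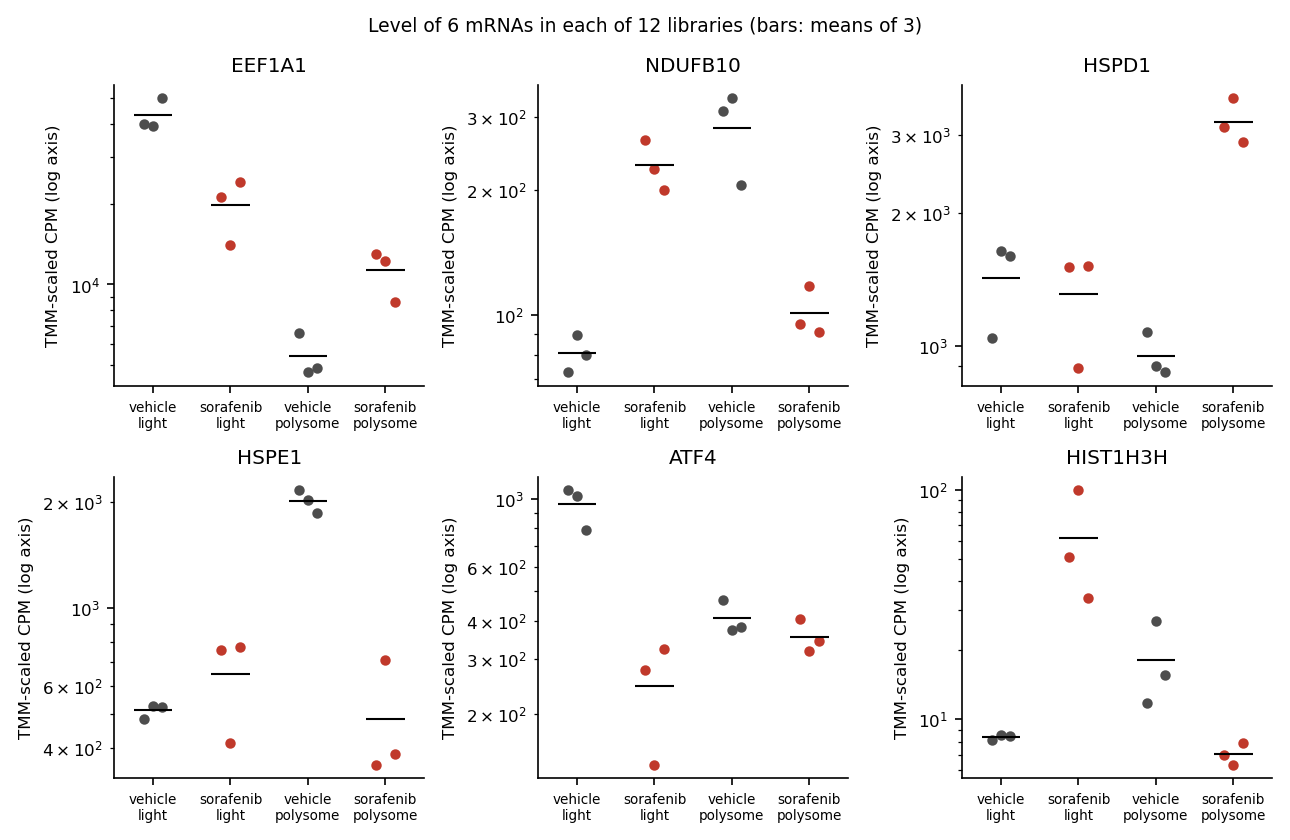
TMM-scaled CPM on a log axis of 6 mRNAs in each of the 12 libraries, with dots for libraries and bars for the mean of 3; vehicle is grey and sorafenib red. EEF1A1 and HSPD1 are higher on polysomes with sorafenib, NDUFB10 and HSPE1 lower, while ATF4 differs mainly in the light pool and HIST1H3H is highest in the sorafenib light pool.

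Cytosolic ribosomal protein mRNAs, most of which carry the same kind of start, mostly passed neither way. Of the 81 listed, 80 were tested, and 67 of them were not called, with a median shift of 0.39. Toward polysomes moved 10 (12.5% against 12.8% of all tested genes) and toward light 3 (3.75% against 10.7%). RPL3, a large-subunit protein near the peptidyl transferase centre, fell from 4314, 4309 and 4549 to 1334, 832 and 2472 CPM in the light pool and rose from 757, 791 and 999.6 to 2012, 1689 and 1489.5 CPM on polysomes, a shift of 2.53 ± 0.47 (SE; adjusted p = 0.000887). RPL4 shifted by 2.06, RPS2 by 2.41, RPL11 by 2.01 and RPSA by 1.53. RPLP0, of the ribosomal stalk, was lower in the sorafenib light pool (-1.66, adjusted p = 0.000785) and differed by -0.10 on polysomes (adjusted p = 0.813), which gave a shift of 1.57 ± 0.44 (SE; adjusted p = 0.0137). RPS26 went the other way, from 789, 756 and 729 to 190.4, 231 and 159.6 CPM on polysomes, with culture differences of 1.53, 1.45 and 0.96 against -1.44, -0.63 and -1.34 and a shift of -2.44 ± 0.35 (SE; adjusted p = 0.000114). RPL36AL (-1.86) and RPL35A (-1.23) also moved toward light, and RPL38 had -0.90 ± 0.42 (SE; adjusted p = 0.128). The count toward polysomes rose to 30 when sorafenib light library 3 was left out. Ribosomal protein genes have many processed pseudogenes, and the sources used here do not say how reads shared with them were divided.

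Aminoacyl-tRNA synthetases, which charge tRNAs with amino acids, moved in the same direction. Of all 20 listed, 14 moved toward polysomes and 0 toward light, with a median shift of 1.30 and a lowest value of 0.14. MARS, the methionyl enzyme, was at 16.6, 22.3 and 20.8 CPM on vehicle polysomes and at 64.9, 34.6 and 64.2 CPM on sorafenib polysomes, and fell in the light pool from 68.7, 94.7 and 205 to 22.3, 31.8 and 47.2 CPM. Its shift was 3.27 ± 0.52 (SE; adjusted p = 0.00024). AARS, the alanyl enzyme, moved through the polysome pool alone, with a change of 2.64 there (adjusted p = 7.21e-07) and 0.16 in the light pool (adjusted p = 0.674). EPRS, QARS and VARS shifted by 3.07, 2.62 and 2.39. The list's median culture difference was -0.55, -1.0 and -1.13 with vehicle and 0.84, 0.64 and 0.49 with sorafenib, without overlap. Left without sorafenib polysome library 1, 9 members passed, and 8 did with library totals only.

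Of all 25 listed initiation factors outside the TOP list, 3 moved toward polysomes (12% against 12.8% of all tested genes). Toward light moved 6 (24% against 10.7%), and the median shift was -0.32. EIF4G1, the scaffold of the cap-binding complex, moved toward polysomes, with culture differences of 0.04, 0.32 and -0.13 against 2.57, 1.86 and 1.99 and a shift of 2.07 ± 0.32 (SE; adjusted p = 0.0002). EIF4EBP1, the repressor of the cap-binding protein, moved toward light, from 1.39, 1.26 and 0.85 to -1.21, -0.73 and -1.03, a shift of -2.22 ± 0.32 (SE; adjusted p = 0.000113). Subunits of the exchange factor eIF2B parted as well, with EIF2B4 at 1.50 and EIF2B1 at -2.19. The list's median ranged over -0.62 to 0.10 across the alternative settings and so has no settled sign, and 5 members moved toward polysomes without sorafenib light library 3.

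Ribosome biogenesis factors, which make and fold ribosomal RNA in the nucleolus, had 27 of 46 tested members toward polysomes and 4 toward light. The shares were 58.7% and 8.70%, against 12.8% and 10.7% of all tested genes, and the median shift was 1.19. NOP56, a core protein of box C/D small nucleolar particles, showed the highest shift of the list: it fell from 2138, 2756 and 3028 to 334, 215 and 267 CPM in the light pool, while polysome values were 122, 73.9 and 81.8 with vehicle and 133, 125 and 139 with sorafenib. Its shift was 3.79 ± 0.39 (SE; adjusted p = 2.99e-05), with a change of -3.27 in the light pool and 0.52 on polysomes (adjusted p = 0.116). RRP12 (2.92), MYBBP1A (2.72) and NOC2L (2.61) rose on polysomes instead, by 1.89, 1.73 and 2.40. NHP2 and NOP10, proteins of the box H/ACA particle, moved toward light with -1.89 and -1.83. The count toward light was 2 without vehicle light library 2, vehicle light library 3 or sorafenib light library 1. Among the non-coding hosts of small nucleolar RNAs, which also start with TOP tracts in many cases (35% of 20 with a listed start), 9 of 22 moved toward polysomes and 0 toward light. SNHG5 went from -3.80, -3.97 and -3.91 to -1.92, -0.59 and -2.68 and GAS5 shifted by 1.85. The host count was 4 without vehicle polysome library 2 and 5 without sorafenib polysome library 1.

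**Figure D3:**
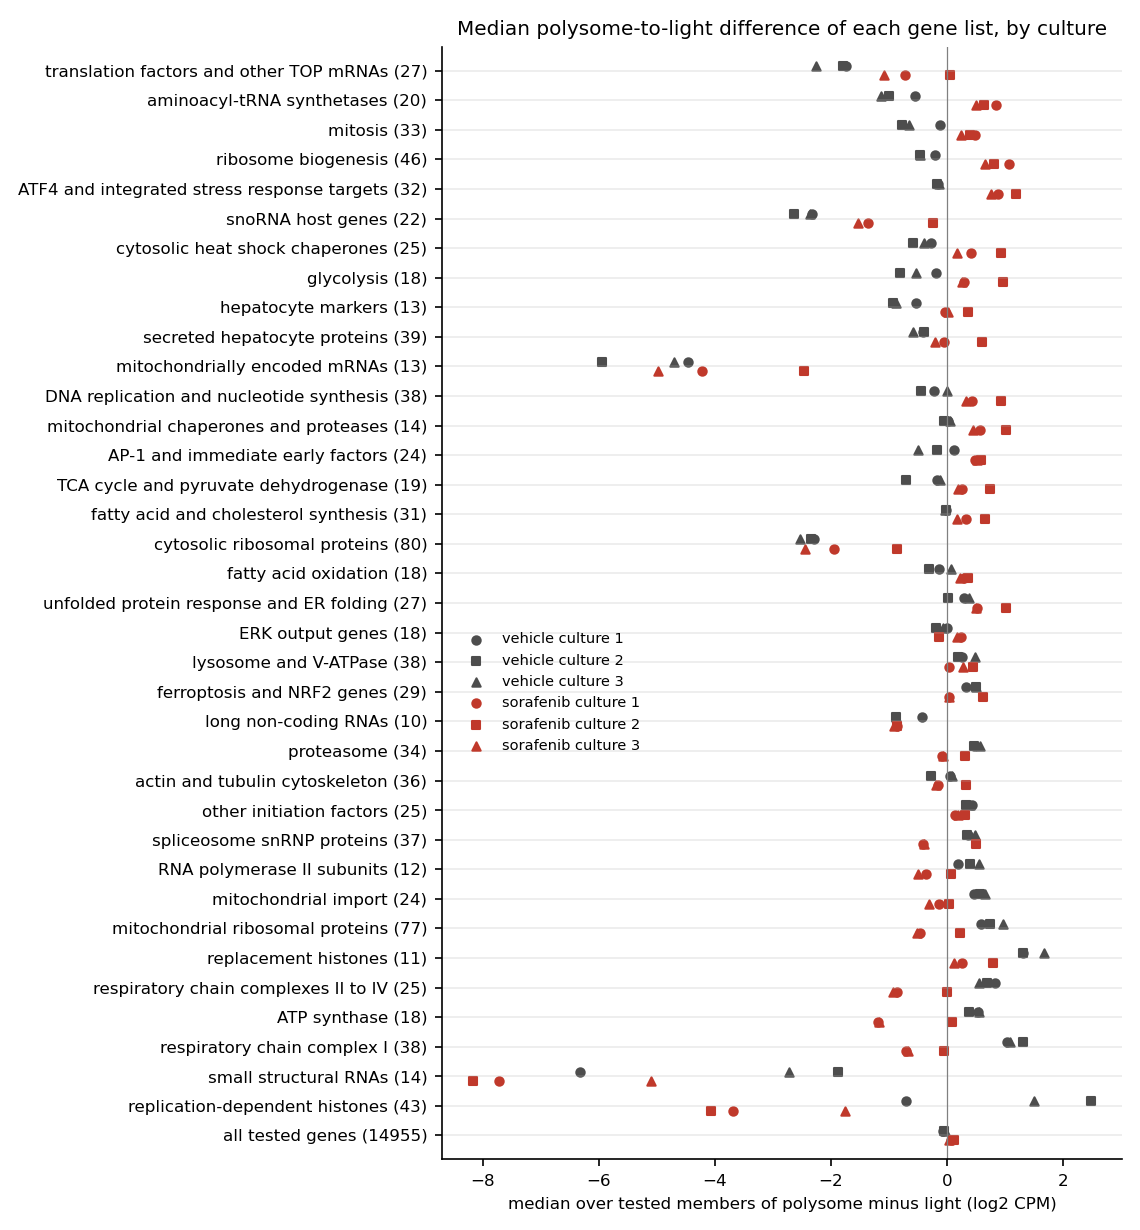
For each gene list (tested members in parentheses), the median over members of the polysome-minus-light difference in log2 CPM is shown in each of 6 cultures, with vehicle in grey and sorafenib in red. Complex I lies at 1.03 to 1.31 with vehicle and at -0.71 to -0.06 with sorafenib, and TOP translation factors at -2.26 to -1.73 and -1.09 to 0.05.

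Nuclear mRNAs of the mitochondrial respiratory chain mostly shifted the opposite way, toward the light pool. Complex I, the NADH dehydrogenase, had 30 of 38 tested members toward light and 2 toward polysomes, with a median shift of -1.55. In 19 of them the polysome level was lower and the light level higher, each with its own call. The median culture difference was 1.03, 1.31 and 1.09 with vehicle and -0.71, -0.06 and -0.67 with sorafenib. NDUFB10, an accessory subunit, fell from 310.4, 333 and 205 to 94.9, 117 and 90.6 CPM on polysomes and rose from 72.6, 89.4 and 80.1 to 264, 224 and 200.4 CPM in the light pool. Neither pool overlapped between treatments, and the shift was -3.0 ± 0.34 (SE; adjusted p = 3.24e-05). NDUFA11, another accessory subunit, had the lowest value of the list at -3.41 ± 0.38 (SE; adjusted p = 3.24e-05), and NDUFA13 and NDUFA2 shifted by -3.37 and -2.99. NDUFB1 went from 1.06, 1.29 and 0.37 to -2.33, -1.78 and -1.69. NDUFS1, a core subunit of the electron-transfer module, moved toward polysomes with 1.03. Sorafenib culture 2, whose light library was the shallowest, gave the highest of the 3 sorafenib medians here, as it did for complexes II to IV, the ATP synthase, TOP translation factors and ribosomal proteins. The list's median stayed at -1.85 to -1.08 across the alternative settings, and the count toward light at 20 to 32 when any 1 library was left out.

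Complexes II to IV followed, with 16 of 25 tested members toward light, 2 toward polysomes and a median shift of -1.26. COX6C of cytochrome oxidase fell from 1186, 1588 and 1221 to 412, 419.7 and 356 CPM on polysomes and rose from 321, 265 and 408 to 1009, 916 and 597 CPM in the light pool, a shift of -3.09 ± 0.39 (SE; adjusted p = 4.87e-05). Complex II, succinate dehydrogenase, parted within itself. Its flavoprotein SDHA rose on polysomes from 66.6, 40.6 and 41.9 to 295, 276 and 288 CPM and shifted by 1.81 ± 0.33 (SE; adjusted p = 0.000791). Its iron-sulfur subunit SDHB shifted by -1.19 and the membrane anchor SDHC by -2.55, both toward light. The ATP synthase had 13 of 18 toward light and 1 toward polysomes, with a median of -1.38. ATP5PD of its peripheral stalk went from 1.70, 2.28 and 1.39 to -1.57, -1.05 and -1.11, a shift of -3.04 ± 0.43 (SE; adjusted p = 9.82e-05), while ATP5F1A, the catalytic-head alpha subunit, went from -1.41, -2.22 and -1.82 to 0.98, 1.45 and -0.03, a shift of 2.44 ± 0.43 (SE; adjusted p = 0.000603). These counts depend on single libraries. Without any 1 of the vehicle light libraries, sorafenib light libraries 1 and 3 or sorafenib polysome libraries 1 and 3, they fell to as few as 8 and 6, while the medians stayed at -1.56 to -0.84 and -1.80 to -0.93 across all settings.

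Mitochondrial ribosomal proteins, encoded in the nucleus and imported, had 40 of 77 tested members toward light and 2 toward polysomes, with a median shift of -1.06. MRPL54 had the lowest value, with culture differences of 1.77, 2.44 and 1.06 against -1.81, -1.77 and -1.31 and a shift of -3.38 ± 0.39 (SE; adjusted p = 3.46e-05). MRPL27 shifted by -3.26 and MRPS34 by -2.20, and MRPS27 (1.55) and MRPL45 (1.05) moved toward polysomes. The count toward light was 26 without vehicle light library 2, 26 without sorafenib light library 1 and 26 without sorafenib light library 3. Of 24 tested genes of mitochondrial import, 10 moved toward light, among them the intermembrane chaperones TIMM10 (-2.20) and TIMM8A (-1.96). TIMM44, which anchors the import motor, moved toward polysomes (1.45). The import count lay at 2 to 12 when any 1 library was left out and was under 1.5 times below 10 only without vehicle polysome libraries 1 and 3, sorafenib light library 2 or sorafenib polysome libraries 1 and 2. The mRNAs made inside mitochondria, which cytosolic ribosomes do not read, were far richer in the light pool in every culture. Toward polysomes passed 2 of 13 (15.4% against 12.8% of all tested genes). MT-ND1 fell from 5244, 6564 and 2992 to 255, 183 and 499 CPM in the light pool and from 78.9, 44.3 and 45.7 to 6.64, 18.6 and 8.97 CPM on polysomes. Its shift of 1.67 ± 0.59 (SE; adjusted p = 0.048) lost its call under 19 of 35 alternative settings, and the count of mitochondrially encoded mRNAs toward polysomes lay at 0 to 6 when any 1 library was left out, with 6 without sorafenib light library 3.

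Mitochondrial chaperones, proteases and TCA enzymes did not follow the respiratory chain. HSPD1 and HSPE1, the chaperonin and its co-chaperonin lid, are encoded side by side and work as a pair, yet they moved apart. HSPD1 rose on polysomes from 1076, 902 and 872 to 3118, 3623 and 2886 CPM, and stood in the light pool at 1043, 1642 and 1596 CPM with vehicle and 1510.0, 894 and 1518 CPM with sorafenib, a shift of 1.88 ± 0.41 (SE; adjusted p = 0.00275). HSPE1 fell on polysomes from 2161, 2031 and 1862 to 358, 712 and 383 CPM, and stood in the light pool at 484, 528 and 523 CPM with vehicle and 758, 413 and 774 CPM with sorafenib, a shift of -2.41 ± 0.43 (SE; adjusted p = 0.000637). Among 14 tested chaperones and proteases, 4 moved toward polysomes, with LONP1 at 1.93 and HSPA9 at 1.71, and HSPE1 alone toward light. Of 19 tested TCA and pyruvate dehydrogenase genes, 6 moved toward polysomes and 1, IDH2 (-1.05), toward light, a call that held only without vehicle polysome library 1 or sorafenib light library 2 when single libraries were left out. OGDH, the E1 subunit of the oxoglutarate dehydrogenase, went from -0.62, -0.86 and -0.89 to 1.99, 2.15 and 1.16.

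Other multi-subunit machines also parted between their subunits. In the spliceosome list 7 of 37 moved toward polysomes and 15 toward light, with a median of -0.68. The helicase SNRNP200 rose from 21.5, 22.5 and 18.3 to 118, 92.3 and 120.4 CPM on polysomes and fell from 44.5, 47.9 and 48.1 to 24.1, 26.2 and 32.2 CPM in the light pool, a shift of 3.15 ± 0.31 (SE; adjusted p = 2.22e-05). The scaffold PRPF8 shifted by 2.76. The Sm-ring protein SNRPD2 went from 742, 711 and 609 to 172, 166 and 157 CPM on polysomes and from 330.5, 304 and 442 to 813, 499 and 622 CPM in the light pool, a shift of -2.91 ± 0.36 (SE; adjusted p = 4.40e-05). Within the SF3b particle, SF3B1, SF3B2 and SF3B3 moved toward polysomes with 1.89, 2.20 and 2.40, and SF3B5 and SF3B6 toward light with -2.87 and -2.24. The spliceosome count toward light was 9 without vehicle light library 2.

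**Figure D4:**
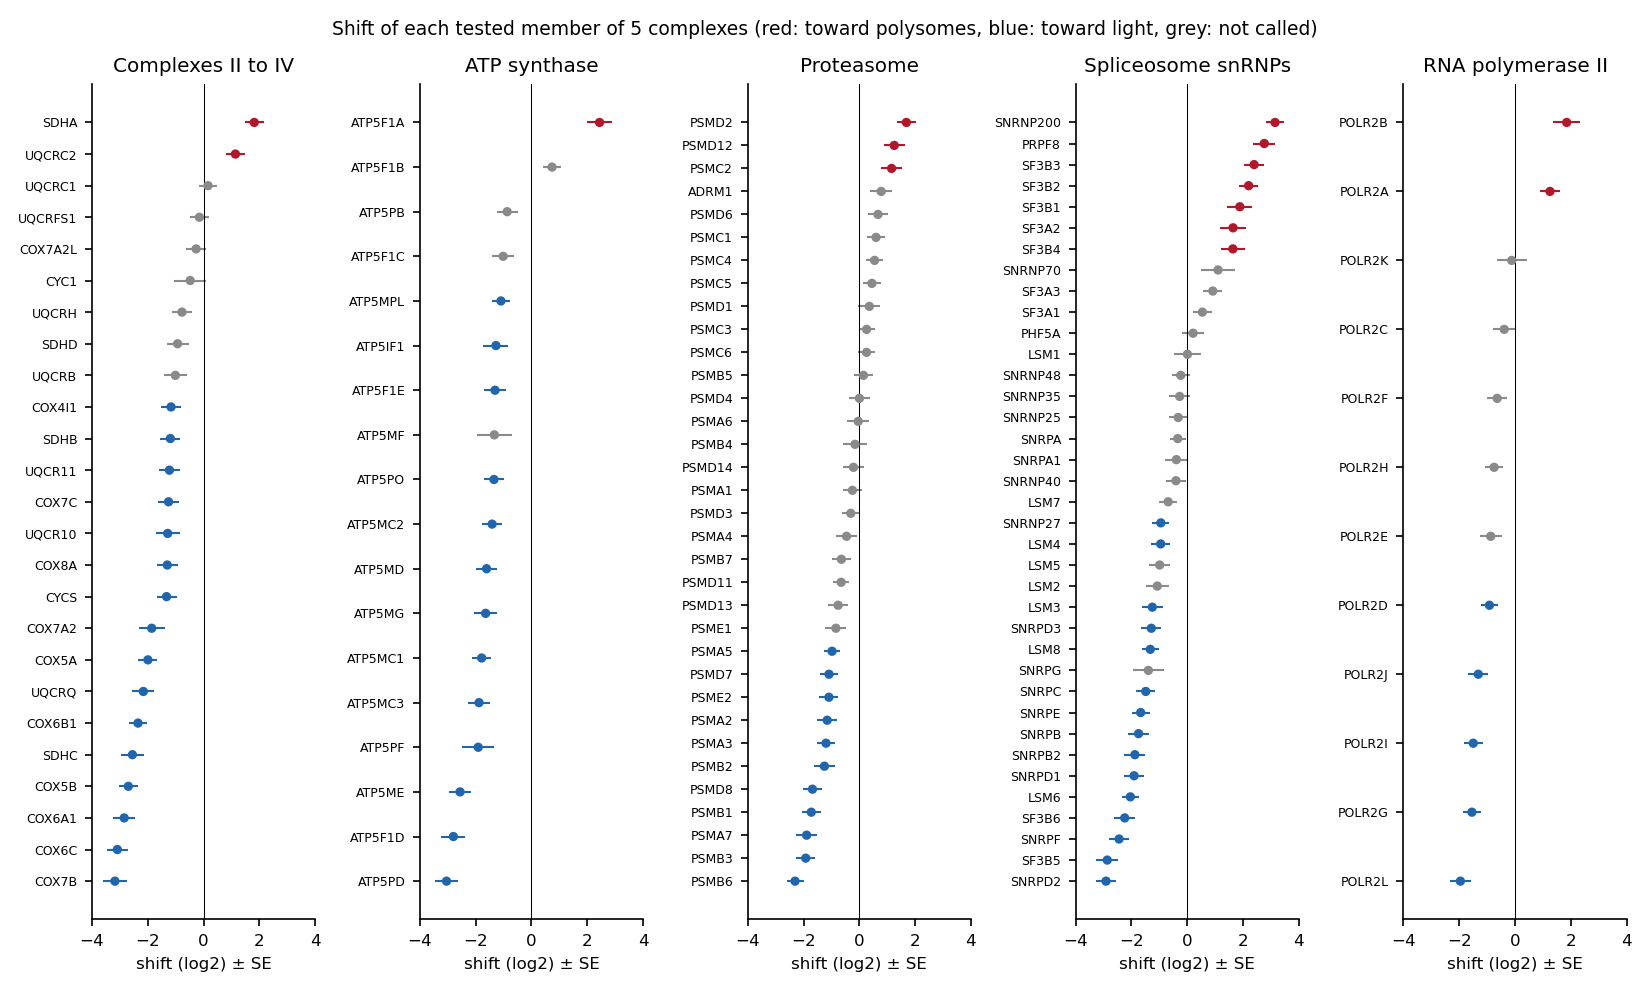
Shift (log2) with its SE for every tested member of 5 gene lists, ordered by value within each; red marks calls toward polysomes, blue calls toward the light pool and grey no call. Each list holds members called in both directions, such as SDHA against SDHC and SNRNP200 against SNRPD2.

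RNA polymerase II had its catalytic subunits POLR2A (1.25) and POLR2B (1.85) toward polysomes. POLR2B overlapped between treatments, at 0.04, -0.98 and -0.68 with vehicle and 2.12, -0.35 and 1.82 with sorafenib. It lost its call under 3 of 35 alternative settings. Toward light moved 5 of 12 tested subunits, POLR2L with -1.96 ± 0.38 (SE; adjusted p = 0.0011) as the lowest. That count lay at 2 to 7 when any 1 library was left out and was over 1.5 times smaller without any 1 of the vehicle light libraries or sorafenib light libraries 1 and 3. Proteasome subunits had 3 of 34 toward polysomes (8.82% against 12.8% of all tested genes), with the regulatory scaffold PSMD2 at 1.69. Toward light moved 11 (32.4% against 10.7%), with the catalytic-ring subunit PSMB6 at -2.31 (culture differences 1.86, 1.92 and 1.73 with vehicle and -0.84, -0.09 and -0.43 with sorafenib). The polysome count was 6 without sorafenib light library 3 and 1 without vehicle polysome library 2 or sorafenib polysome library 3. The count toward light lay at 5 to 12 when any 1 library was left out and held within 1.5 times only without vehicle polysome libraries 1 and 3, sorafenib light library 2 or sorafenib polysome library 2. Of 36 tested cytoskeleton genes, 10 moved each way, a share of 27.8% against 12.8% and 10.7% of all tested genes. Filamin FLNA, an actin cross-linker, went from -0.44, -0.31 and -0.85 to 2.93, 1.69 and 2.66 and shifted by 3.06 ± 0.40 (SE; adjusted p = 6.59e-05). Profilin PFN1, which binds actin monomers, went from 1.98, 1.92 and 1.55 to -0.88, -1.19 and -0.92, a shift of -2.76 ± 0.41 (SE; adjusted p = 0.000169), and the myosin light chain MYL6 shifted by -3.06 while the heavy chain MYH9 shifted by 2.81.

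Among genes of the integrated stress response, 32 of the 35 listed were tested, 14 moved toward polysomes and 0 toward light, with a median shift of 1.10. The median culture difference was -0.16, -0.18 and -0.13 with vehicle and 0.89, 1.19 and 0.77 with sorafenib. ATF4, the transcription factor of this response, was at 1063, 1021 and 788 CPM in the vehicle light pool and at 277, 137 and 326 CPM in the sorafenib light pool. On polysomes it stood at 469, 375 and 383 CPM with vehicle and 406, 319 and 344 CPM with sorafenib, a difference of -0.20 (adjusted p = 0.574). Its shift of 1.74 ± 0.40 (SE; adjusted p = 0.00417) therefore came with lower light RNA. The effectors DDIT3 and PPP1R15A gained on polysomes instead. DDIT3, a pro-apoptotic factor, went from 21.9, 13.1 and 10.7 to 75.8, 53.5 and 86.6 CPM there and shifted by 1.94 ± 0.51 (SE; adjusted p = 0.0101). PPP1R15A, the phosphatase subunit that reverses eIF2 phosphorylation, went from 23.1, 26.4 and 45.8 to 245, 130.4 and 158 CPM on polysomes and from 24.8, 25.6 and 49.4 to 56.9, 22.4 and 46.7 CPM in the light pool, a shift of 2.05 ± 0.49 (SE; adjusted p = 0.00496). The enzymes PCK2, PHGDH and SHMT2 shifted by 1.92, 1.56 and 1.66, the amino acid transporter subunit SLC3A2 by 1.84 and the secreted STC2 by 1.89. The targets ASNS (0.79, adjusted p = 0.284), TRIB3 (-0.75, adjusted p = 0.282) and PSAT1 (-1.07, adjusted p = 0.0604) did not pass. Without both shallow sorafenib light libraries, 7 members passed.

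Genes of the unfolded protein response of the endoplasmic reticulum had 5 of 27 toward polysomes and 5 toward light, with a median of 0.36. Each share was 18.5%, against 12.8% and 10.7% of all tested genes. The chaperone HYOU1 went from -0.97, -0.67 and -0.12 to 2.43, 1.18 and 1.86, a shift of 2.47 ± 0.37 (SE; adjusted p = 0.000168), and HSPA5 shifted by 1.62. The secreted factor MANF went from 1.56, 1.78 and 1.74 to -0.48, 0.48 and -0.69, a shift of -1.91 ± 0.38 (SE; adjusted p = 0.00135). SEC61B, a translocon subunit, shifted by -1.67. The count toward light lay at 2 to 5 when any 1 library was left out, and held within 1.5 times only without vehicle polysome libraries 1, 2 and 3 or sorafenib light library 2. Of 24 immediate early genes, 5 moved toward polysomes (20.8% against 12.8% of all tested genes) and 0 toward light. JUN, an AP-1 subunit, rose on polysomes from 5.93, 5.49 and 11.3 to 95.1, 60 and 90.8 CPM and in the light pool from 10.7, 9.87 and 28.6 to 38.2, 29.9 and 44.8 CPM, a shift of 2.13 ± 0.52 (SE; adjusted p = 0.00567). MYC shifted by 1.46 ± 0.46 (SE; adjusted p = 0.0279), a call lost under 11 of 36 alternative settings. TXNIP, a thioredoxin-binding arrestin, was lower in both pools and had 1.06 ± 0.39 (SE; adjusted p = 0.0576). Leaving out 1 library moved the immediate early count to between 3 and 7, the low end without vehicle polysome library 2, sorafenib light library 1 or sorafenib polysome libraries 1 and 3.

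Output genes of the ERK cascade, which lies downstream of the RAF kinases that sorafenib inhibits, showed 3 calls toward polysomes and 2 toward light among 18 tested. The shares were 16.7% and 11.1%, against 12.8% and 10.7% of all tested genes, and the median of 0.13 was near that of all genes. EPHA2 (1.83) and IER3 (1.15) were called with MYC toward polysomes, and ETV4 (-1.43) and SPRED2 (-1.05) toward light. DUSP6, an ERK phosphatase, was lower in the sorafenib light pool (-2.11, adjusted p = 0.00517), with -0.87 on polysomes (adjusted p = 0.083) and a shift of 1.24 ± 0.66 (SE; adjusted p = 0.188). Its culture differences were -0.48, -0.40 and -0.84 with vehicle and 0.73, 4.40 and 0.98 with sorafenib, the highest in sorafenib culture 2, whose light library was the shallow one. These counts depend on single libraries: no ERK output gene passed toward polysomes without vehicle polysome library 2 or sorafenib polysome libraries 1 and 3, and none toward light without any 1 of the vehicle light libraries, vehicle polysome library 2 or sorafenib light library 1.

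Iron and redox genes moved both ways, with 7 of 29 toward polysomes and 7 toward light. Each share was 24.1%, against 12.8% and 10.7% of all tested genes. FTH1 and FTL, the ferritin chains that store iron and whose mRNAs carry an iron-responsive element, were far more abundant in the light pool than on polysomes. FTH1 fell there from 33065, 27569.8 and 27041 to 11869.6, 5461 and 9758 CPM, and stood on polysomes at 1459, 943 and 584 CPM with vehicle and 1455, 1611 and 1317 CPM with sorafenib, a shift of 2.25 ± 0.52 (SE; adjusted p = 0.00417). FTL fell from 67639, 59797 and 48236 to 21685, 10416 and 19428 CPM in the light pool, a shift of 2.35 ± 0.54 (SE; adjusted p = 0.00408). TFRC, the transferrin receptor that takes up iron, rose on polysomes from 74.5, 47.1 and 58 to 203, 256 and 229 CPM and shifted by 2.40 ± 0.38 (SE; adjusted p = 0.00026). The antioxidant enzymes SOD1 (-2.45), PRDX5 (-2.12), PRDX2 (-1.83) and thioredoxin TXN (-1.76) moved toward light, whereas catalase CAT (2.10) and PGD (2.36), of the pentose phosphate pathway, moved toward polysomes. GPX4 and SLC7A11, both central to resistance to ferroptosis, had -0.10 (adjusted p = 0.887) and 1.02 (adjusted p = 0.26). Left without 1 library, the count toward polysomes lay at 6 to 11, the high end without sorafenib light library 3. The count toward light lay at 3 to 8 and was over 1.5 times smaller without any 1 of the vehicle light libraries, vehicle polysome library 2, sorafenib light libraries 1 and 3 or sorafenib polysome libraries 1 and 3.

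Replication-dependent histone mRNAs, which end in a stem-loop in place of a poly(A) tail, were measured in all 4 groups only in part: 43 of the 65 listed were tested, and a member low in 3 groups could pass the filter on low counts through the sorafenib light pool alone, where it then had to differ. The 38 called toward light and 0 toward polysomes, and the median of -4.95, therefore describe the members that passed and nothing more. HIST1H3H, which had reads in every library, was at 8.11, 8.53 and 8.51 CPM in the vehicle light pool and 51.1, 99.1 and 33.9 CPM in the sorafenib light pool, and on polysomes at 11.8, 26.8 and 15.6 CPM with vehicle and 7.02, 6.36 and 7.91 CPM with sorafenib, a shift of -4.07 ± 0.49 (SE; adjusted p = 3.76e-05). HIST1H2BC was such a low member, at 1.91, 0.487 and 0 CPM in the vehicle light libraries and 45.2, 28.1 and 21.7 CPM in the sorafenib light libraries. Its polysome values were 1.31, 7.44 and 1.69 CPM with vehicle and 0.83, 1.26 and 2.4 CPM with sorafenib. The median culture difference was -0.70, 2.48 and 1.50 with vehicle, vehicle culture 1 standing apart, and -3.69, -4.07 and -1.76 with sorafenib. Without both shallow sorafenib light libraries 24 passed, and 8 when every library was thinned to the smallest, where 7680 genes of all kinds were tested. Histone genes are near-identical copies, so that reads may be divided between them. The polyadenylated replacement histones had 6 of 11 toward light, with a median of -1.06. H2AFJ went from 1.52, 1.98 and 1.68 to -0.95, -0.50 and -0.87, a shift of -2.54 ± 0.30 (SE; adjusted p = 3.46e-05), and H3F3B shifted by -1.74. That count fell to as few as 2 without any 1 of the vehicle light libraries or sorafenib light libraries 1 and 3.

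Among mRNAs of secreted hepatocyte proteins 12 of 39 moved toward polysomes (30.8% against 12.8% of all tested genes) and 7 toward light (17.9% against 10.7%). TTR, the thyroxine and retinol-carrier transporter, went from 46.1, 41.9 and 28 to 179.7, 78.6 and 193 CPM in the light pool and from 175, 120.0 and 90.5 to 62.9, 58 and 61.6 CPM on polysomes, a shift of -3.07 ± 0.43 (SE; adjusted p = 9.08e-05). APOA1, the main protein of high-density lipoprotein, rose in the light pool from 1487, 1773 and 1302 to 11587, 14493 and 7843 CPM, and stood on polysomes at 4820.3, 7969 and 3789.8 CPM with vehicle and 6152, 8138 and 5388 CPM with sorafenib, a shift of -2.65 ± 0.49 (SE; adjusted p = 0.000806). APOA2 (-2.58), APOC1 (-1.15), APOC3 (-1.65), APOM (-2.03) and RBP4 (-1.34) also moved toward light. Toward polysomes moved the clotting factors F2 (1.88), F5 (1.50) and F7 (3.03), the complement proteins C3 (1.16) and C5 (1.89), and APOB, the scaffold of low-density lipoprotein, with 1.91 ± 0.57 (SE; adjusted p = 0.0202). Albumin ALB rose in both pools, from 1695, 1345 and 759.6 to 6093, 7324 and 5417 CPM on polysomes and from 2519, 4003 and 2139.8 to 8430.3, 6475 and 9679 CPM in the light pool, and its shift was 0.80 ± 0.48 (SE; adjusted p = 0.242). Left without 1 library the count toward light lay at 3 to 6, and it was over 1.5 times smaller without vehicle light libraries 2 and 3, vehicle polysome library 2, sorafenib light libraries 1 and 3 or sorafenib polysome libraries 1 and 3. Without both shallow sorafenib light libraries 6 passed toward polysomes.

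In central metabolism the glycolytic list had 7 of 18 toward polysomes, led by hexokinase HK2 (2.54) and enolase ENO2 (2.40), and TPI1 (-1.64) alone toward light. The glycolytic count was 3 without vehicle polysome library 2, 3 without sorafenib polysome library 1 and 11 without sorafenib light library 3. Of 31 genes of fatty acid and cholesterol synthesis 8 moved toward polysomes. FASN, the fatty acid synthase, rose on polysomes from 36.1, 57.4 and 32.5 to 207, 225 and 238 CPM, a shift of 2.77 ± 0.48 (SE; adjusted p = 0.000462), and its regulator SREBF1 shifted by 2.21, while the sterol isomerase EBP (-1.67) and PMVK (-1.64) moved toward light. The synthesis count was 3 without sorafenib light library 1. In fatty acid oxidation HADHA (2.25) and ACADVL (1.93) of the inner membrane moved toward polysomes, and ETFB (-3.02) and ECHS1 (-1.95) toward light, among 4 and 3 of 18. Those shares were 22.2% and 16.7%, against 12.8% and 10.7% of all tested genes. Without sorafenib light library 3, 7 oxidation genes moved toward polysomes.

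Of 33 mitotic genes, 16 moved toward polysomes (48.5% against 12.8% of all tested genes) and 4 toward light (12.1% against 10.7%). Of 38 replication genes, 18 moved toward polysomes (47.4%) and 6 toward light (15.8%). The medians of the 2 lists were 1.21 and 0.70. The condensin subunit NCAPD2 went from -0.81, -0.13 and -0.68 to 2.33, 1.31 and 1.37, a shift of 2.14 ± 0.38 (SE; adjusted p = 0.000565). PTTG1 (securin, -2.60), BIRC5 (survivin, -1.82), UBE2C (-1.71) and MAD2L1 (-1.26) moved toward light. The DNA ligase LIG1 went from -0.79, -1.18 and -1.34 to 2.33, 1.14 and 1.60, a shift of 2.88 ± 0.38 (SE; adjusted p = 6.75e-05), and the helicase subunits MCM3 and MCM2 shifted by 2.59 and 2.23. RPA3, a subunit of replication protein A, went from 2.13, 1.90 and 1.49 to -1.22, -0.80 and -1.0, a shift of -2.80 ± 0.35 (SE; adjusted p = 5.11e-05). RPA1, another subunit, shifted by 1.11. The 6 replication genes toward light fell to 3 without vehicle light libraries 1 and 2, sorafenib light libraries 1 and 3 or sorafenib polysome library 1, each left out alone.

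Cytosolic chaperones had 10 of 25 toward polysomes (40% against 12.8% of all tested genes) and 2 toward light (8% against 10.7%), with a median of 1.01. Subunits of the ring chaperonin that folds actin and tubulin made up much of the first group, CCT2 (2.08), CCT3 (1.58) and CCT5 (1.40) among them, and HSPB1 (-0.90) and PTGES3 (-1.05) moved toward light. That polysome count was 6 without vehicle polysome library 2, and when single libraries were left out the count toward light held only without sorafenib light library 2. Of 38 lysosomal genes, 8 moved toward polysomes (21.1% against 12.8% of all tested genes) and 10 toward light (26.3% against 10.7%). Toward polysomes 5 passed without sorafenib polysome library 3. Within the proton pump, the subunits ATP6V1A (1.39), ATP6V1B2 (1.80) and ATP6V0A1 (1.09) moved toward polysomes and ATP6V1F (-1.98) and ATP6V0C (-1.86) toward light. The protease CTSB went from 1.34, 2.17 and 1.92 to -0.77, -1.27 and 0.27, a shift of -2.52 ± 0.44 (SE; adjusted p = 0.000482), and the cholesterol transporter NPC1 shifted by 2.06.

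**Figure D5:**
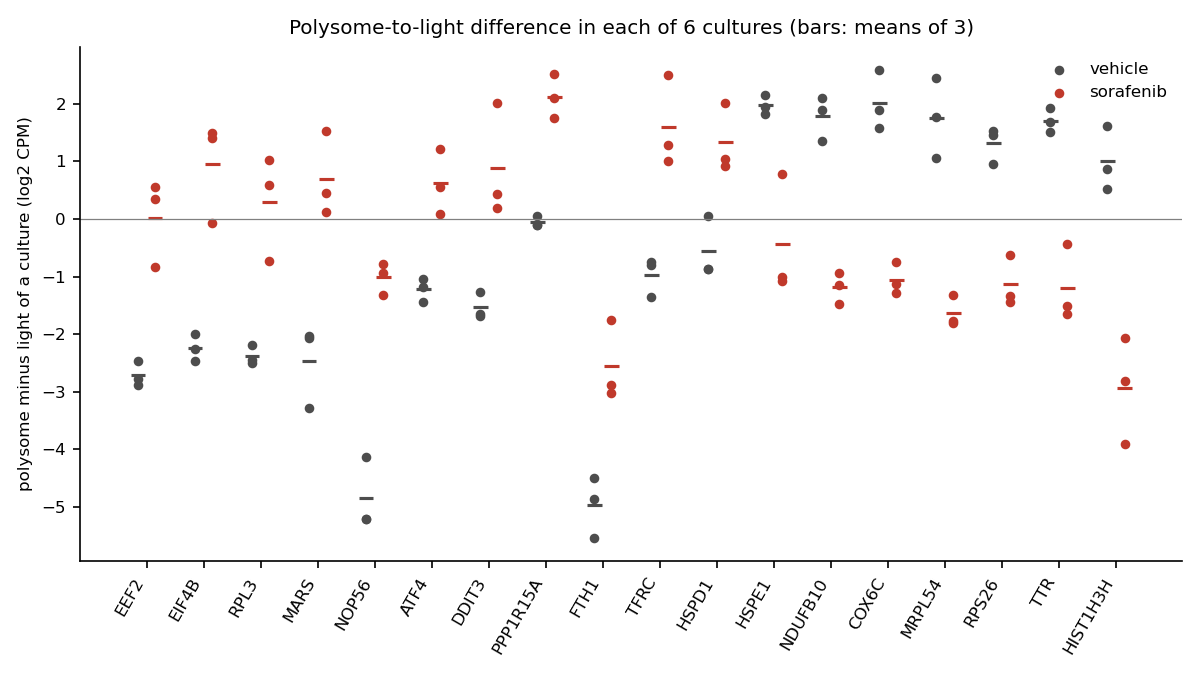
Polysome-minus-light difference in log2 CPM of 18 mRNAs in each of 3 vehicle (grey) and 3 sorafenib (red) cultures, with bars for the means. The 18 were picked from called genes, whose shift comes from these same libraries, so the lack of overlap between treatments in all 18 is no separate support. Sorafenib lies above vehicle from EEF2 to HSPD1 and below it from HSPE1 to HIST1H3H. Of all tested genes, 22.5% lay above without overlap and 17.0% below.

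By size, the highest shifts among called genes with a mean log2 CPM of 3 or more and no overlap between treatments were those of FTLP3 (4.38), the small nucleolar RNAs SNORD86 (4.09) and SNORD23 (3.96), NOP56, the actin nucleator DIAPH1 (3.65), AC040162.3 (3.53), the collagen COL18A1 (3.51), the myosin chaperone UNC45A (3.41), CHTF18 (3.38) and the purine enzyme PFAS (3.38). SNORD86 and SNORD23 passed both limits on low values through the vehicle light pool, where they stood at 33.7, 47.3 and 25.9 and at 28, 30 and 38 CPM, with means of at most 1.91 and 3.86 CPM in the other groups, so that their rank is a description only. FTLP3 is a pseudogene of FTL, and its reads may be those of FTL. COL18A1 rose on polysomes from 23.3, 38.3 and 21 to 175, 179 and 217 CPM, and stood in the light pool at 41.7, 44.5 and 50.6 CPM with vehicle and 20.5, 28.1 and 33.6 CPM with sorafenib, and DIAPH1 rose on polysomes by 1.96 and fell in the light pool by 1.69 on the log2 scale. At the other end stood RF00002 (-7.91), the 3 histones HIST1H3B (-6.35), HIST1H4E (-5.69) and HIST1H3H, PTMAP5 (-4.54), MIR1244-1 (-3.78), MIR1244-2 (-3.56), MIR1244-3 (-3.47), MMAB (-3.64) and PTMS (-3.62). RF00002, HIST1H3B and HIST1H4E had their highest mean CPM in the sorafenib light pool, which weighs in their passing those limits, so that their rank is likewise a description only. RF00002 stood at 225, 2074 and 52.5 CPM there, with means of at most 2.67 CPM in the other groups. PTMAP5 and the MIR1244 rows lie in copies of prothymosin alpha, so their counts cannot be told apart from reads of PTMA, whose own shift was -3.38 ± 0.49 (SE; adjusted p = 0.00013). MMAB, an adenosyltransferase of cobalamin, went from 1.72, 2.09 and 1.18 to -1.68, -2.44 and -1.14. RF00002 lost its call under 5 of the alternative settings.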

How the data were processed

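Raw counts per gene were deposited by the authors as 1 table of 57353 rows and 12 libraries. GRCh38.p12 is named in the submitters' processing notes, and the aligner, counter and strand setting are, for these counts, not given in the sources used here. Ribosome profiling is the series' stated type, while the labels' protocols describe libraries made from the RNA of pooled gradient fractions. The column of sorafenib polysome library 3 carries the same index label as that of vehicle light library 1, and the columns were assigned by their names.

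The 14955 rows kept by edgeR's filterByExpr were fitted in R 4.3.3 with edgeR 4.0.16 (TMM scaling, glmQLFit, glmQLFTest) over 4 groups, and the shift was tested as the interaction, called at an adjusted p under 0.05. SE is the absolute log2 shift divided by the square root of F. A culture difference is polysome minus light log2 CPM with a prior count of 2. The share of counts in rows not tested reached 4.54% in sorafenib light library 2. Of the tested rows, 12847 carry a RefSeq symbol. With 3 cultures against 3, an exact permutation test of a single gene cannot go below 0.1.

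The members and the 39 gene lists were chosen with earlier results of these data known. The named genes were the 10 highest and the 10 lowest called shifts whose mean log2 CPM reached 3 and whose cultures did not overlap between treatments, the 4 called members of smallest p in each list (2 where none passed) and 19 fixed genes. Members named beyond that were chosen after their values were seen. The 2 pools of a culture share its number in the sample titles, and after subtracting group means they correlated at r = -0.07 to 0.33. Numbers shared across treatments are not stated to pair cultures (r = -0.20 to 0.02). Alternatives varied the scaling, filter, tool (DESeq2 1.42.0, limma 3.58.1), block, depth and libraries. Coding length was not analysed here, and some members of the lists are not reported here.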

Additional observations from a re-analysis of the deposited data

Results flagged for a closer look

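In 340 of the 14955 tested genes sorafenib lowered the level on polysomes and raised it in the light pool, and in 204 it did the reverse. Its effect thus had opposite signs in the 2 pools, with a call in each. The shift is the difference of these 2 effects, so its call for such genes is no separate support. Of the 340, 19 were among the 38 tested members of complex I, 11 among 77 mitochondrial ribosomal proteins and 7 among 25 members of complexes II to IV. The spliceosome and cytoskeleton lists held 7 each, of 37 and 36, the lysosome list 5 of 38 and other initiation factors 4 of 25. Replication-dependent histones held 9 of 43, under the limit of the filter given above, and lists not named here held at most 3. Of the 204, 7 were among the 27 TOP translation factors, 3 among 20 aminoacyl-tRNA synthetases and 3 among 46 ribosome biogenesis factors. The spliceosome list, the 80 ribosomal proteins and the 38 replication genes held 2 each. The cytoskeleton list held 1, as did those of mitochondrial ribosomal proteins, mitochondrial import, TCA enzymes and mitosis. No list was tested against the 340 and 204 of all 14955 tested genes, so small counts are no result about a list.

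The polysome-to-light ratio itself changed sign between treatments, with a call in each treatment and for the difference, in 234 genes that were richer on polysomes with vehicle and in the light pool with sorafenib, and in 266 genes that went the other way.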

How the results depend on the processing

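Of the 168 named genes 164 were called, 129 kept direction and call under every one of the 36 alternative settings that gave a value, 35 lost the call under at least 1 and 0 reversed. Medians of 7 of 36 lists changed sign under at least 1 setting: other initiation factors, proteasome, long non-coding RNAs, ERK output, ferroptosis and NRF2, lysosome and cytoskeleton. Counts of genes toward polysomes were 1210 with library totals only and 846 after thinning every library to the depth of the shallowest. Counts toward light were 900 with no filter on low counts, 2507 with limma-voom and sample weights, and 903 after thinning, where 7680 genes were tested. Leaving out 1 library or culture gave 898 to 2836 genes toward polysomes and 701 to 1801 toward light. With the culture as a replicate block 2215 and 1728 genes were called, and 1996 and 1563 with a replicate block of the number shared across treatments, which was chosen after seeing the data, as was leaving out sorafenib light library 2 with vehicle light library 1 (2106 and 1387). DESeq2 called 2031 and 1833. The sorafenib light libraries were the shallowest, and some settings leave fewer genes or samples. Without sorafenib light library 2, 2451 genes moved toward polysomes and 1606 toward light, and without library 3, 2836 and 1430. The causes of these differences were not tested.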

Other observations

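By the biotype of the matching RefSeq symbol, 14.6% of 11565 protein-coding rows moved toward polysomes and 11.3% toward light, against 4.20% and 6.76% of 547 long non-coding RNA rows. The median shifts of these 2 classes were 0.08 and -0.40. Whether read depth has a part in the shares was not tested. Of 68 small nucleolar RNA rows, 7 moved toward polysomes and 0 toward light in edgeR's test, with a median shift of 0.94, and the 10.3% toward polysomes was below the 12.8% of all tested genes. Their reads lie within introns or hosts of other genes and cannot be told apart from host RNA. Of 14 tested small structural RNAs in a fixed list, 2 moved toward light (14.3% against 10.7% of all tested genes), with a median of -2.25. The count was 9 without vehicle light library 1. It was 0 without vehicle light library 2 or 3, vehicle polysome library 2, sorafenib light library 1 or 2 or sorafenib polysome library 1 or 2. Of 10 tested long non-coding RNAs in a list, 3 moved toward polysomes (30% against 12.8%) and 1 toward light (10% against 10.7%). Among 423 tested ZNF zinc finger genes of 640 in the table, 39 moved toward polysomes and 11 toward light, with a median of 0.31. These shares, 9.22% and 2.60%, were below the 12.8% and 10.7% of all tested genes.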
